A study of Mus musculus with 6 samples.

Results

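The nuclear genes for the subunits of the mitochondrial respiratory chain and ATP synthase were compared between mouse angiosarcoma cells given an miR-497 mimic and cells given a control mimic. The genes were taken by symbol from the deposited count table: protein-coding genes whose names begin with Nduf followed by a, b, c, s or v, with Uqcr, Cox4i, Cox5, Cox6, Cox7, Cox8 or Atp5, and the 4 genes Sdha, Sdhb, Sdhc and Sdhd. This gave 94 of the 55401 genes in the table. By the complex their product belongs to, 36 were complex I genes, 4 complex II, 8 complex III, 20 complex IV and 17 complex V. The remaining 9 were 8 Ndufaf genes, which encode assembly factors of complex I, and a second annotated copy of Atp5o.

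All libraries came from 1 line, ADC106, whose source is labelled as an angiosarcoma, a cancer of endothelial cells, and which was grown in DMEM with serum. Cells labelled WT received the mimic named NC, and cells labelled miR-497 overexpression received the miR-497 mimic. Both mimics were used at 12.5 nM, RNA was taken 3 days after transfection, and each group had 3 poly(A)-enriched libraries. What the NC mimic consists of was not given beyond its name, and the labels do not say that the libraries of a group came from separate cultures, so the p-values measure the spread between these libraries, which may be technical.

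The respiratory chain moves electrons from NADH (complex I) and succinate (complex II) through ubiquinone to complex III, then through cytochrome c to complex IV, which reduces oxygen. Complexes I, III and IV pump protons, and complex V, the ATP synthase, uses the return flow of protons to make ATP. Every complex except complex II also contains subunits encoded by mitochondrial DNA, so these complexes are built from the products of 2 genomes. A microRNA represses transcripts whose 3′ UTR pairs with its seed, the bases near its 5′ end.

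The mature sequences below are the 2 arms of mouse miR-497a, with bases 2 to 8 of each, the seed, in capitals. miR-195a-5p from the same locus is shown because it shares the seed of the 5p arm. The sequences are RefSeq entries on GRCm38.p6, and miR-497a-5p lies at chr11:70234730-70234751 on the plus strand. Which arms the mimic contains was not given in the labels.
mmu-miR-497a-5p: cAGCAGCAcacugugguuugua
mmu-miR-497a-3p: cAAACCACacugugguguuag
mmu-miR-195a-5p: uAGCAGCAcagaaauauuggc

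Total counts per library ranged from 25777676 to 36159499. Libraries of a group correlated at r = 0.987 or more on the log2 CPM scale across genes, and libraries of different groups at 0.970 or less. The endothelial markers used to check the tissue label were all above the filter on low counts (12 of 12), with 7 higher and 4 lower after miR-497, and their summed level was 9969 to 10679 CPM in NC and 9647 to 10141 CPM in miR-497 libraries. Leukocyte markers summed to at most 1.44 CPM, with Cd3e and Itgam at 0 in all libraries, and epithelial markers to at most 4.65 CPM. Fibroblast and smooth muscle markers (7 genes, 6 tested, 3 higher and 1 lower) summed to 317 to 337 CPM in NC and 504 to 600.2 CPM in miR-497 libraries. Among the latter, Col1a2 was at 129 ± 5.96 CPM in NC and 286 ± 26.3 CPM in miR-497 libraries (SD, n = 3), and Pdgfrb was the gene that was lower. Over all tested genes, 23.8% were higher and 26.0% lower in the test described below. The part of the difference in these sums in the results below was not tested. In bulk RNA, a change in the number of cells of a type and a change in RNA per cell cannot be told apart. The labels give no batch or date. Many respiratory chain genes have processed pseudogenes elsewhere in the genome, and whether reads shared with such copies were counted was not given.

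Of the 94 genes, 85 passed the filter on low counts, 21 rose and 16 fell after miR-497 in edgeR's quasi-likelihood test (adjusted p under 0.05), and 48 did not pass the test. Of all 14661 genes tested, 49.8% were called, 23.8% higher and 26.0% lower, against 43.5% of the respiratory chain genes, 24.7% higher and 18.8% lower. The share of these genes called was thus near that of the whole table. The median size of their log2 fold changes was 0.19, against 0.34 over all tested genes, and the signed medians were 0.02 and -0.02, values given as a description with no test. One gene, Ndufb9, was called with a change of at least 2-fold, a size reached with a call by 8.82% of all tested genes. The NC and miR-497 libraries did not overlap for 24 genes on the higher and 17 on the lower side. Such separation in either direction was seen for 57.4% of all tested genes.

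**Figure D1:**
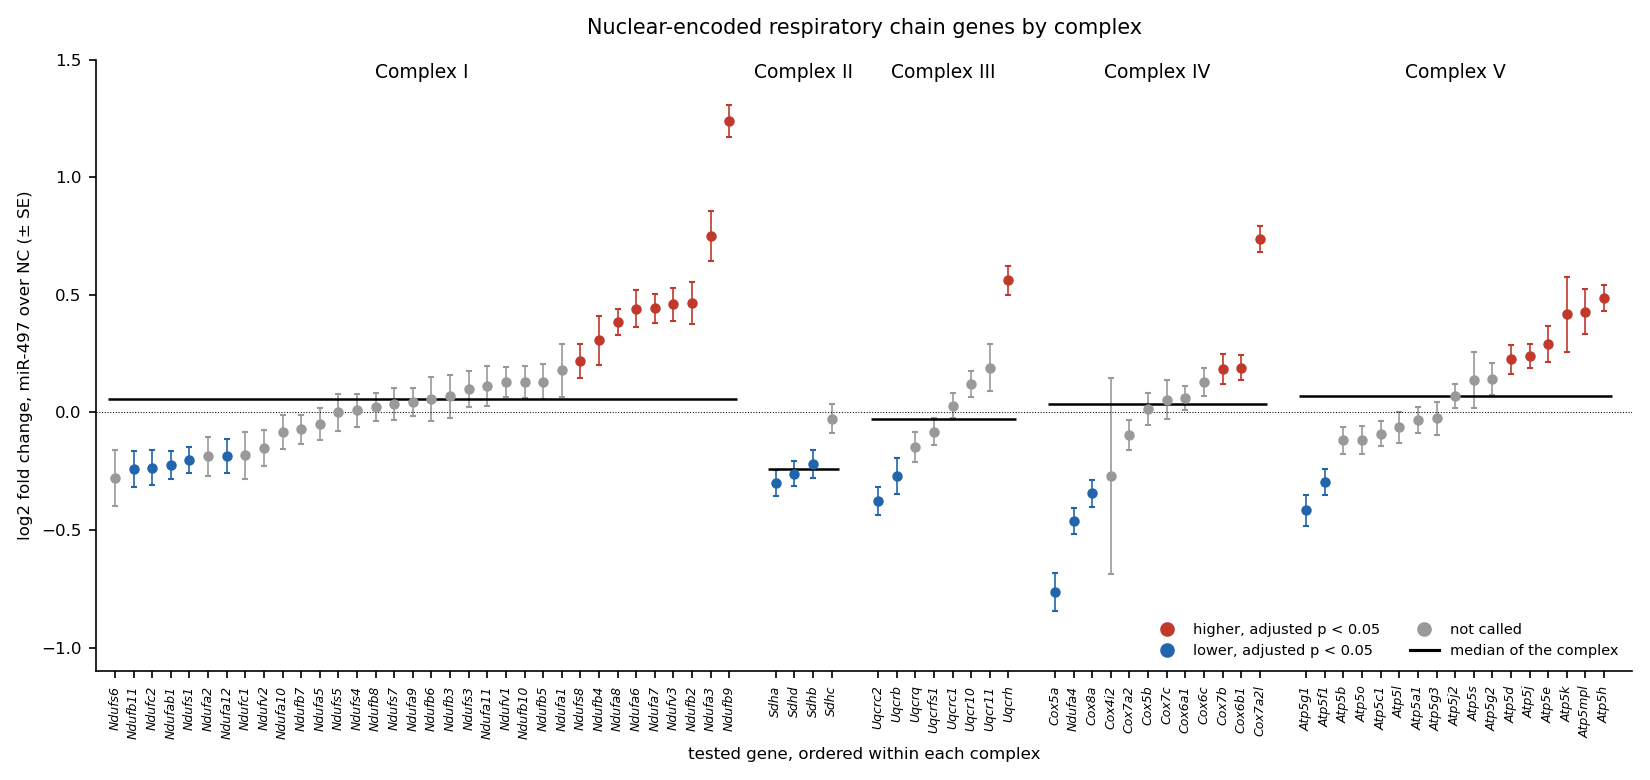
log2 fold change of miR-497 over NC (y axis, ± SE) of tested genes of complexes I to V, ordered by size within their complex (x axis), with 1 complex I gene not drawn; red and blue points passed the test in either direction, grey points did not, and black lines are medians. Genes of complexes I, III, IV and V lie on both sides of 0, the 4 complex II genes all lie below it, and Ndufb9 stands highest at 1.24.

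By complex, 10 of 35 tested genes rose and 5 fell in complex I, 0 rose and 3 of 4 fell in complex II, and 1 rose and 2 fell of 8 in complex III. In complex IV 3 rose and 3 fell of 12 tested, and in complex V 6 rose and 2 fell of 17. Median log2 fold changes were 0.06, -0.24, -0.03, 0.03 and 0.07 for complexes I to V. The 9 genes that were not tested were 5 listed at 0 in every library (Cox4i1, Ndufa13, Cox6a2, Cox6b2 and Cox7b2) and 4 with few counts (Cox7a1, Cox8b, Cox8c and Ndufa4l2). Cox4i1 and Ndufa13 encode subunits that most tissues use, so for them no more can be said than that the table lists 0.

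Complex I takes electrons from NADH in a peripheral arm of flavin and iron-sulfur proteins and pumps protons through a membrane arm. Its 7 nuclear core subunits carry out the chemistry, and the accessory subunits surround them. Of the core genes, 2 rose, Ndufs8 (log2 fold change 0.22) among them, Ndufs1 fell, and 4 did not pass the test. Of 28 tested accessory genes, 8 rose and 4 fell.

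Ndufb9 encodes an accessory subunit of the membrane arm (ENSMUSG00000022354, chr15:58933756-58939488, GRCm38). Its level was 39.3, 43.1 and 38.3 CPM in the NC libraries and 101, 94.0 and 90.2 CPM in the miR-497 libraries. The groups were far apart, with means of 40.2 ± 2.53 and 95.2 ± 5.63 CPM (SD, n = 3). The log2 fold change was 1.24 (SE 0.07), a 2.36-fold rise, with an adjusted p of 3.1e-10 in edgeR. The annotation places 19.5% of the exon bases of Ndufb9 under exons of a predicted gene on the same strand, Gm49356, and how reads in that stretch were assigned was not given.

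Ndufa7, an accessory subunit of the peripheral arm, was at 56.8, 58.1 and 52.5 CPM in NC and 75.0, 75.1 and 77.6 CPM in miR-497 libraries. The groups again did not overlap, and the log2 fold change was 0.44 (edgeR, SE 0.06, adjusted p = 1.6e-05). Other complex I genes that rose were Ndufa3 (log2 fold change 0.75), Ndufb2 (0.46), Ndufv3 (0.46), Ndufa6 (0.44), Ndufa8 (0.38) and Ndufb4 (0.31). The call of Ndufb4 was lost without NC library 1 or miR-497 library 1 or 3, and that of Ndufs8 without NC library 1 or 3 or miR-497 library 1.

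The complex I genes that fell were Ndufb11 (log2 fold change -0.24), Ndufc2 (-0.24), Ndufab1 (-0.22), Ndufs1 (-0.20) and Ndufa12 (-0.19). Ndufs1 encodes the large iron-sulfur protein that receives electrons from the flavin site, and Ndufab1 the mitochondrial acyl carrier protein, which also serves fatty acid synthesis. The libraries of Ndufa12 overlapped between groups, and 12.9% of the exon bases of Ndufb11 lie opposite exons of Rbm10. Without NC library 3, 2 of the 5 still passed the test, and Ndufa12, Ndufb11 and Ndufc2 did not. Those 2, Ndufab1 and Ndufs1, were not called in the fit with both the replicate number and the GC and length offsets, nor was Ndufa12. Without miR-497 library 3, Ndufa12 and Ndufb11 lost their calls, and Ndufa12 also without NC library 2 or miR-497 library 2. Over the 20 tested genes that were not called, 12 log2 fold changes were positive and 8 negative.

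Complex II, succinate dehydrogenase, is also an enzyme of the tricarboxylic acid cycle and has 4 subunits, all encoded in the nucleus. Its catalytic part is the flavoprotein Sdha with the iron-sulfur protein Sdhb, held to the membrane by Sdhc and Sdhd. Both catalytic genes and 1 of the 2 anchor genes fell, and 0 rose (0 also at an unadjusted p under 0.05 in edgeR, the DESeq2 Wald test and limma voom).

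Sdha (ENSMUSG00000021577, chr13:74322254-74350280) was at 257, 277 and 291 CPM in NC and 228, 216 and 226 CPM in miR-497 libraries. Every miR-497 value was below every NC value, and the log2 fold change was -0.30 (edgeR, SE 0.06, adjusted p = 0.00024). Sdha had the highest TPM of the complex, 217 ± 10.9 in NC and 169 ± 5.47 in miR-497 libraries (SD, n = 3). TPM here is the count per kilobase of transcript scaled to the same sum in every library.

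Sdhb was at 83.6, 87.2 and 91.3 CPM in NC and 77.7, 71.0 and 76.5 CPM in miR-497 libraries. The gap between the groups was 83.6 against 77.7 CPM at its narrowest. The log2 fold change was -0.22 (edgeR, SE 0.06, adjusted p = 0.0063).

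Sdhd, at chr9:50596357-50603812, was at 108, 111 and 113 CPM in NC and 95.0, 90.5 and 92.5 CPM in miR-497 libraries. The libraries were close together within groups and separate between them. The log2 fold change was -0.26 (edgeR, SE 0.05, adjusted p = 0.00056). The other anchor gene, Sdhc, was measured at 80.6 ± 5.21 CPM in NC and 79.1 ± 2.54 CPM in miR-497 libraries (SD, n = 3), with overlapping groups, a log2 fold change of -0.03 (SE 0.06) and an edgeR adjusted p of 0.75.

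Complex III passes electrons from ubiquinol to cytochrome c. Its nuclear genes include Uqcrc1 and Uqcrc2, for the core proteins on the matrix side, the Rieske iron-sulfur protein gene Uqcrfs1, and 5 genes for small subunits. Here 1 small subunit gene rose, 1 fell, and 1 of the core protein genes fell.

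Uqcrh encodes the hinge protein beside cytochrome c1 (ENSMUSG00000063882, chr4:116066965-116075071). It was at 65.2, 71.3 and 69.7 CPM in NC and 106, 94.6 and 104 CPM in miR-497 libraries. All miR-497 values were higher, with a log2 fold change of 0.56 (edgeR, SE 0.06, adjusted p = 1.2e-06).

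Uqcrc2 was at 131, 133 and 133 CPM in NC and 111, 98.6 and 96.5 CPM in miR-497 libraries. The groups were separate, and the log2 fold change was -0.38 (edgeR, SE 0.06, adjusted p = 4.5e-05). Of its exon bases, 19.7% lie opposite exons of Pdzd9, and since the strand setting of the counting was not given, reads of the 2 genes cannot be told apart there. Its partner Uqcrc1 was at 273 ± 7.33 and 279 ± 10.9 CPM (SD, n = 3) and did not pass the test (log2 fold change 0.03, SE 0.05).

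Uqcrb, a small subunit near the ubiquinone site, was at 60.3, 67.7 and 68.7 CPM in NC and 60.5, 51.2 and 51.5 CPM in miR-497 libraries. The highest miR-497 value lay just above the lowest NC value. The gene fell in the test, with a log2 fold change of -0.27 (edgeR, SE 0.08, adjusted p = 0.0077).

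Uqcr10 had the highest TPM of complex III, 566 ± 4.77 in NC and 590.1 ± 29.6 in miR-497 libraries (SD, n = 3). In CPM it was at 105, 109 and 108 in NC and 123, 109 and 118 in miR-497 libraries. The groups were just separate, and it did not pass the test at a log2 fold change of 0.12 (edgeR, SE 0.06, adjusted p = 0.087). It passed with upper-quartile scaling and without miR-497 library 2 (edgeR adjusted p = 0.018 and 0.028), and its sign turned to -0.03 with offsets for GC content and length. Without NC library 2, Uqcr11 passed as a second higher gene of the complex.

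Complex IV, cytochrome c oxidase, has nuclear subunits around a catalytic core encoded by mitochondrial DNA. Several of them exist as a widely expressed form and a form of heart and muscle, lung or testis. In the Cox7a and Cox8 families the widely expressed form held nearly all counts. Cox6a1 was at 206 ± 2.36 and 216 ± 7.55 CPM (SD, n = 3) while Cox6a2 is listed at 0, and Cox6a1 had the highest TPM of the complex, 827 ± 1.51 in NC and 829 ± 25.6 in miR-497 libraries. Cox7a2 was at 71.8, 69.0 and 66.0 CPM in NC and 68.5, 61.5 and 63.8 CPM in miR-497 libraries, while the muscle form Cox7a1 had between 0.063 and 0.394 CPM. In TPM, Cox7a1 made up 0.487% ± 0.213 of the pair in NC and 0.473% ± 0.398 in miR-497 libraries (SD, n = 3).

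Cox6a1 and Cox7a2 did not pass the test (log2 fold changes 0.06 and -0.10, edgeR adjusted p = 0.33 and 0.23). Cox4i2, the lung form of subunit 4, was at 0.567 to 1.03 CPM over the 6 libraries, with a log2 fold change of -0.27 (SE 0.42). Its widely expressed partner Cox4i1 is among the genes listed at 0, so the pair cannot be compared. The heart and muscle form Cox8b and the testis form Cox8c had counts in 1 NC library each, and Ndufa4l2, the paralog of Ndufa4, stayed at or below 0.126 CPM.

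The complex IV gene with the largest fall was Cox5a (ENSMUSG00000000088, chr9:57521274-57532426), a subunit on the matrix side. It was at 66.4, 76.5 and 76.6 CPM in NC and 47.7, 42.2 and 39.4 CPM in miR-497 libraries. The lowest NC value was well above the highest miR-497 value. The log2 fold change was -0.76 (edgeR, SE 0.08, adjusted p = 5.8e-07), the most negative among the 85 tested genes. Exons of Gm26631 lie opposite 12.8% of its exon bases.

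Ndufa4, first assigned to complex I and now counted as a subunit of complex IV, was at 130.2, 135 and 139 CPM in NC and 104, 96.8 and 93.0 CPM in miR-497 libraries. The groups did not overlap, and the log2 fold change was -0.46 (edgeR, SE 0.06, adjusted p = 2.9e-06).

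Cox8a, the widely expressed form of a small membrane subunit, was at 116, 125 and 125 CPM in NC and 99.1, 97.2 and 91.7 CPM in miR-497 libraries. Each miR-497 library was below each NC library, with a log2 fold change of -0.35 (edgeR, SE 0.06, adjusted p = 6.8e-05).

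Cox7a2l encodes a factor that joins complexes III and IV in supercomplexes (ENSMUSG00000024248, chr17:83501918-83517330). Its level was 115, 125 and 119.6 CPM in NC and 205, 188 and 208 CPM in miR-497 libraries. The lowest miR-497 library was well above the highest NC library, and the log2 fold change was 0.74 (edgeR, SE 0.06, adjusted p = 1.4e-08). Its relative Cox7a2, described above, did not pass the test.

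Cox6b1, which faces the intermembrane space, was at 104, 104 and 98.5 CPM in NC and 121, 114 and 115 CPM in miR-497 libraries. It rose with separate groups and a log2 fold change of 0.19 (edgeR, SE 0.05, adjusted p = 0.0074), and with GC and length offsets it no longer passed (log2 fold change 0.08, edgeR adjusted p = 0.22). Cox7b also rose (log2 fold change 0.19), a call lost without NC library 1 or miR-497 library 1. Cox6c was at 127, 139 and 129.5 CPM in NC and 154, 137 and 141 CPM in miR-497 libraries. Its groups overlapped, and the log2 fold change was 0.13 (edgeR, SE 0.06, adjusted p = 0.077), a value that passed the threshold with upper-quartile scaling, with a filter at a mean count of 50 and with the offsets.

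**Figure D2:**
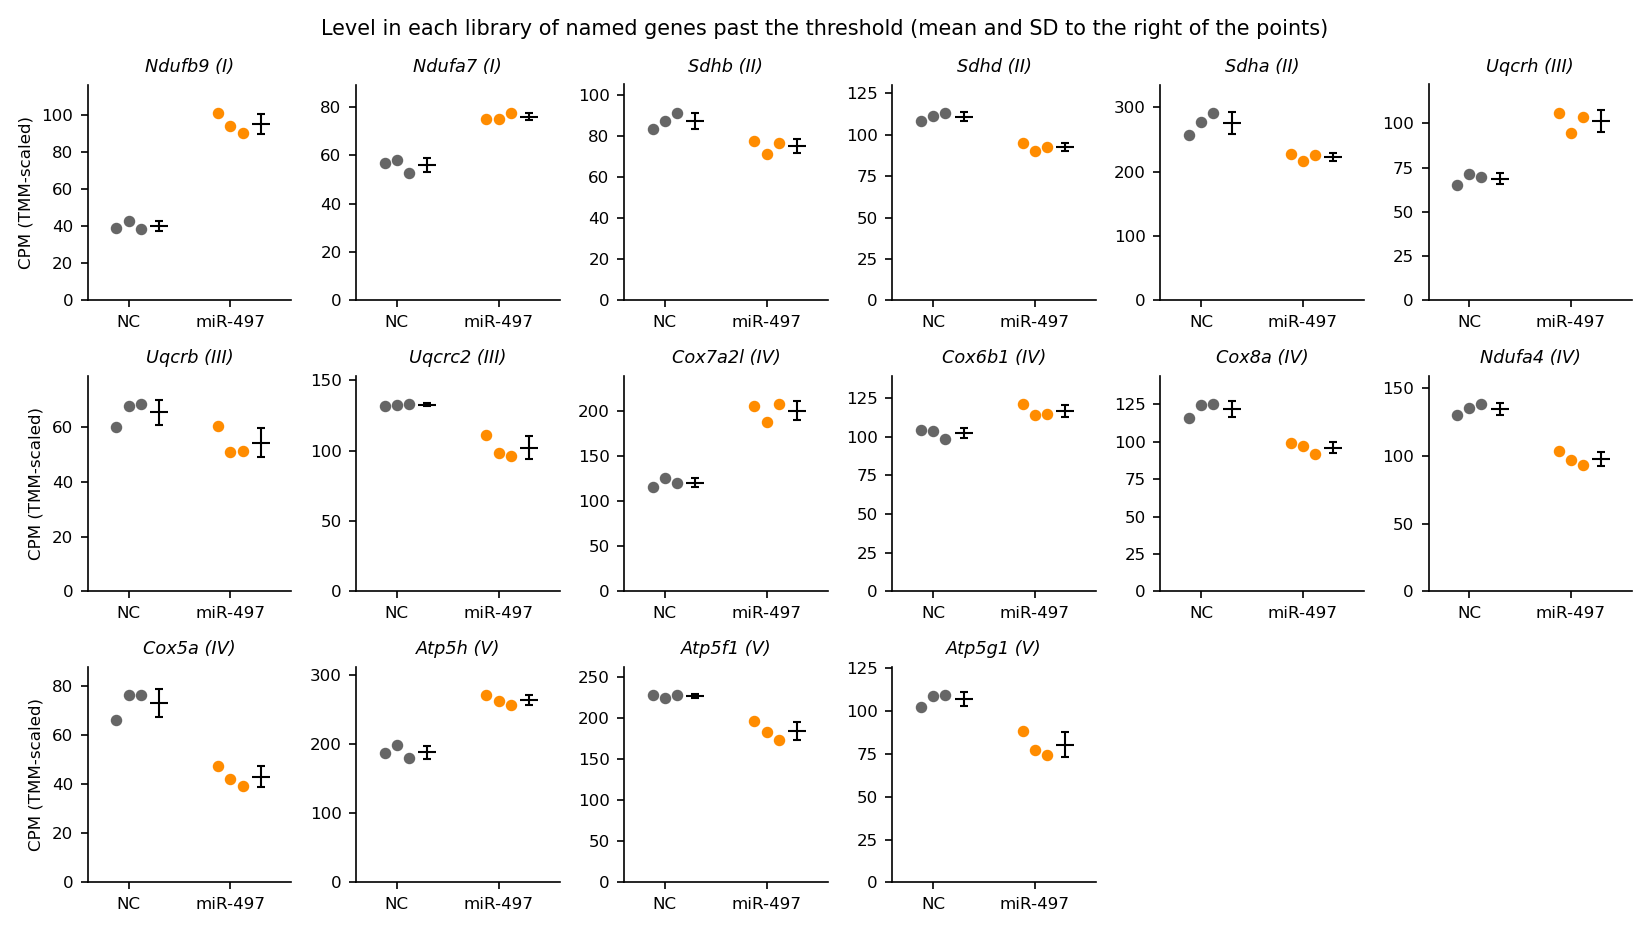
Level in each library (y axis, CPM scaled by TMM, starting at 0) of the 16 genes past the threshold that are described one by one, for the 3 NC and 3 miR-497 libraries, with the mean and SD to the right of the points; Roman numerals give the complex. The groups overlap for Uqcrb and for none of the other 15 genes, and the gap is widest relative to the level for Ndufb9.

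Complex V consists of a catalytic head and central stalk on the matrix side, a ring of c subunits in the membrane that turns as protons pass, and a peripheral stalk that holds the head still. Genes of the stalk went in both directions: Atp5h and Atp5j rose, Atp5f1 fell, and Atp5o did not pass the test. Of the 5 head and central stalk genes, Atp5d and Atp5e rose (log2 fold changes 0.22 and 0.29), and Atp5a1, Atp5b and Atp5c1 did not pass. Of 4 small membrane subunit genes, Atp5k and Atp5mpl rose (0.42 and 0.43, with overlapping libraries for Atp5k). The call of Atp5k was lost with GC and length offsets, with or without the replicate number in the fit, and without NC library 1 or 3 or miR-497 library 1 or 3, and that of Atp5d without NC library 1. Atp5j rose by 0.24 on the log2 scale, and 12.7% of its exon bases lie opposite exons of Gabpa.

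Atp5h, for subunit d (ENSMUSG00000034566, chr11:115415689-115419962), was at 187, 198 and 179 CPM in NC and 272, 262 and 257 CPM in miR-497 libraries. The groups were separate, with a log2 fold change of 0.49 (edgeR, SE 0.05, adjusted p = 1.2e-06).

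Atp5f1, for subunit b of the same stalk, was at 228, 224 and 228 CPM in NC and 196, 183 and 174 CPM in miR-497 libraries. It moved the other way from Atp5h, with separate groups and a log2 fold change of -0.30 (edgeR, SE 0.05, adjusted p = 0.00022). Fitted with both the replicate number and the GC and length offsets, it did not pass (log2 fold change -0.15, edgeR adjusted p = 0.068).

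Atp5b, the catalytic beta subunit, had the highest level of all these genes, in CPM and per length. It was at 1337, 1405 and 1436 CPM in NC and 1328, 1293 and 1226 CPM in miR-497 libraries, and at 1663 ± 40.3 and 1469 ± 27.5 TPM (SD, n = 3). The CPM values of the groups did not overlap, but the log2 fold change of -0.12 (SE 0.06) did not pass the test (edgeR adjusted p = 0.097). It passed without NC library 1 (-0.16, edgeR adjusted p = 0.034).

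The c subunit is encoded by 3 genes, Atp5g1, Atp5g2 and Atp5g3, whose precursors differ in the leader that is cut off on import and give the same mature protein. Atp5g1 was at 102, 109 and 109.6 CPM in NC and 88.5, 77.6 and 74.6 CPM in miR-497 libraries. The groups were separate, with a log2 fold change of -0.42 (edgeR, SE 0.07, adjusted p = 5.2e-05).

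Atp5g2 was at 70.9, 82.9 and 79.1 CPM in NC and 90.5, 85.8 and 80.9 CPM in miR-497 libraries. Its groups overlapped (log2 fold change 0.14, SE 0.07, edgeR adjusted p = 0.092), and it passed with upper-quartile scaling or without miR-497 library 3. Atp5g3 was at 133, 159.7 and 162 CPM in NC and 152, 139.9 and 155 CPM in miR-497 libraries, with a log2 fold change of -0.03 (edgeR, SE 0.07, adjusted p = 0.78) whose sign depended on the scaling and on the libraries used.

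Per length, Atp5g3 was the most abundant of the 3 genes and Atp5g1 the least. Atp5g1 made up 10.5% ± 0.573 of the family's TPM in NC and 7.82% ± 0.487 in miR-497 libraries, Atp5g2 34.6% ± 0.826 and 38.2% ± 1.74, and Atp5g3 54.9% ± 1.22 and 54.0% ± 2.12 (SD, n = 3). Summed over the family, the level was 876 TPM in NC and 841 TPM in miR-497 libraries. Whether reads shared by these 3 genes, if any, were counted was not given.

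**Figure D3:**
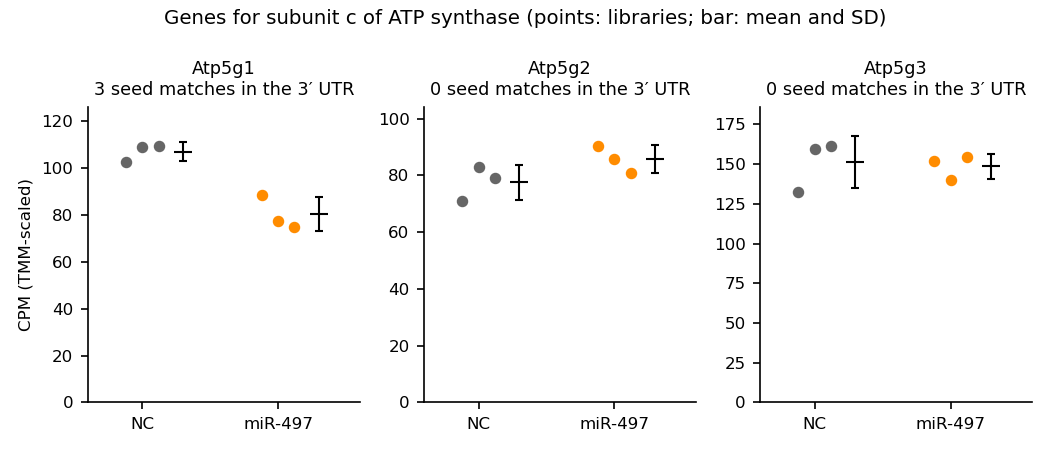
Level in each library (y axis, CPM scaled by TMM, starting at 0) of the 3 genes for subunit c, with mean and SD, and above each panel the number of miR-497-5p seed matches in the longest annotated 3′ UTR. Atp5g1, with 3 matches, is lower in all miR-497 libraries, at 74.6 to 88.5 CPM against 102 to 109.6 CPM, and the other 2 genes overlap between groups.

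Summed over its nuclear genes, complex I was at 2008 ± 66.9 CPM in NC and 2241 ± 71.5 CPM in miR-497 libraries, and complex II at 554 ± 28.1 and 470.2 ± 13.0 CPM (SD, n = 3). The groups did not overlap in either sum, with log2 ratios of 0.16 and -0.24, in opposite directions. For complexes III, IV and V the log2 ratios were -0.01, 0.04 and -0.03, and the libraries overlapped. Over the 85 genes of the 5 complexes together the log2 ratio was 0.02, again with overlap. Per length, complex IV was lower after miR-497 with separate groups, at 4602 ± 123 TPM in NC and 4358 ± 77.7 TPM in miR-497 libraries (SD, n = 3; log2 ratio -0.08). With 3 libraries against 3, an exact permutation test of such a sum cannot give a p under 0.1. The sums hold only the genes taken by symbol, so that of complex III leaves out Cyc1, which is given below. Cox4i1, listed without counts, adds nothing to the sum of complex IV.

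The 13 subunits encoded by mitochondrial DNA summed to 20113, 19082 and 20621 CPM in NC and 37683, 31313 and 28042 CPM in miR-497 libraries. All miR-497 libraries were higher, with a wide spread among them (log2 ratio 0.70). Of 10 of these genes tested, 9 rose and 0 fell (0 also at an unadjusted p under 0.05 in edgeR, the DESeq2 Wald test and limma voom), and the smallest adjusted p was that of mt-Nd2, a membrane subunit of complex I (log2 fold change 1.14, SE 0.08, edgeR adjusted p = 3.3e-09). Over the nuclear genes, in the same libraries, the log2 ratio of the sum was 0.02, as given above. These libraries were selected for poly(A), so the values describe polyadenylated mitochondrial RNA, and 3 of the 13 genes were too low to test. Most of the sum was 1 gene, mt-Co1, at 12628 ± 733 CPM in NC and 18679 ± 3133 CPM in miR-497 libraries (SD, n = 3). Of the tested genes, mt-Co2, mt-Co3 and mt-Atp6 had group means of at most 3.99 CPM. The sum thus says little of the level of these genes.

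**Figure D4:**
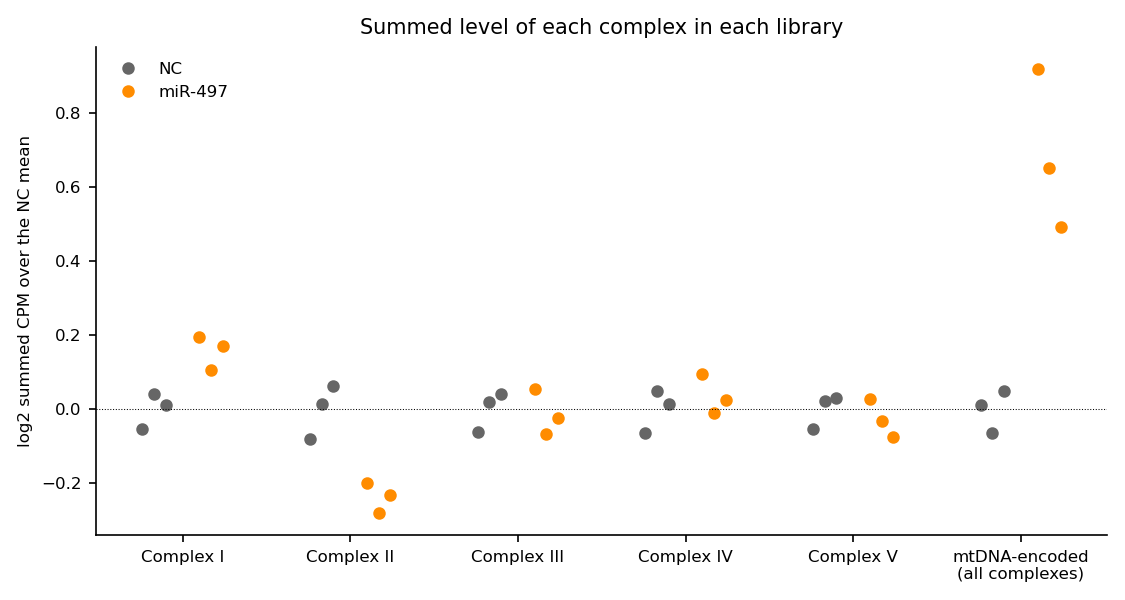
Summed level of the nuclear genes taken by symbol for each complex (Cyc1 not included), and of the 13 mitochondrially encoded subunits, in each library (y axis, log2 of the summed CPM over the NC mean). Complex I lies higher and complex II lower in all 3 miR-497 libraries, complexes III to V overlap between groups, and the mitochondrially encoded genes are higher by 0.49 to 0.92. Most of that last sum is mt-Co1.

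Of the 8 Ndufaf assembly factors of complex I, Ndufaf7, a methyltransferase of the mitochondrial matrix, rose (log2 fold change 0.27), Ndufaf1 fell (-0.32), and 6 did not pass the test. The call of Ndufaf7 was lost when any 1 library other than NC 2 was left out. Over a wider list of assembly factors for all complexes, 12 of 47 tested rose and 13 fell, counts near the shares of 23.8% higher and 26.0% lower among all tested genes. For complex II, Sdhaf2, which attaches the flavin to Sdha, fell by 0.83 on the log2 scale (61.3 ± 3.28 to 34.4 ± 4.22 CPM, n = 3, SD; edgeR adjusted p = 4.0e-07). It was 1 of 2 factors that fell of the 4 tested for that complex, and none rose.

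For complex IV, 7 assembly factors rose and 7 fell of 19 tested. Cox11, which delivers copper to the catalytic core, fell from 18.1 ± 2.06 to 5.98 ± 0.171 CPM (n = 3, SD; log2 fold change -1.60, edgeR adjusted p = 1.1e-08), and Coa5 rose (log2 fold change 0.52, edgeR adjusted p = 6.2e-07). For complex III, 2 rose and 3 fell of 6, with Uqcc1 at -0.51 and Uqcc2 at 0.22, both needed for the making of cytochrome b. For complex I, 3 rose and 1 fell of 14, with Dmac1 at 0.49, and for complex V 0 of 4 were called. Of those 4, at an unadjusted p under 0.05, 0 passed in edgeR, 0 in the DESeq2 Wald test and 1 in limma voom.

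Outside the prefixes searched, Cyc1, for the cytochrome c1 of complex III, fell from 169.7 ± 2.04 to 114 ± 4.43 CPM (n = 3, SD; log2 fold change -0.58, edgeR adjusted p = 7.9e-08). Atpif1, the inhibitor of ATP synthase, rose from 51.0 ± 1.14 to 82.3 ± 3.86 CPM (n = 3, SD; log2 fold change 0.69, edgeR adjusted p = 1.0e-07).

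Genes around the chain are given by list, beside the 23.8% higher and 26.0% lower of all tested genes, where lower calls also outnumber higher ones. Of 17 genes for electron carriers and ubiquinone synthesis, 4 rose and 8 fell. Cytochrome c, Cycs, fell from 166 ± 3.51 to 109 ± 5.04 CPM (n = 3, SD; log2 fold change -0.61, edgeR adjusted p = 5.8e-08), and Dhodh, a pyrimidine enzyme that feeds ubiquinone, rose (log2 fold change 0.62, edgeR adjusted p = 0.00013). Of 13 tricarboxylic acid cycle genes, 2 rose and 8 fell, with Sucla2 and Suclg2, for the alternative beta subunits of succinyl-CoA ligase, at -0.83 and 0.21 and Suclg1, for the alpha subunit that either one joins, at -0.36.

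Of 12 regulators of mitochondrial biogenesis, 2 rose and 6 fell. The nuclear receptor gene Esrra fell by 0.92 on the log2 scale (39.1 ± 2.35 to 20.7 ± 1.03 CPM, n = 3, SD; edgeR adjusted p = 4.6e-08), and Yy1 rose (log2 fold change 0.27, edgeR adjusted p = 0.00047). Median log2 fold changes were -0.16, -0.21 and -0.28 for the carriers, the cycle and the regulators, against 0.02 for the 85 respiratory chain genes and -0.02 for all tested genes. Whether these lists differ from the respiratory chain genes was not tested.

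**Figure D5:**
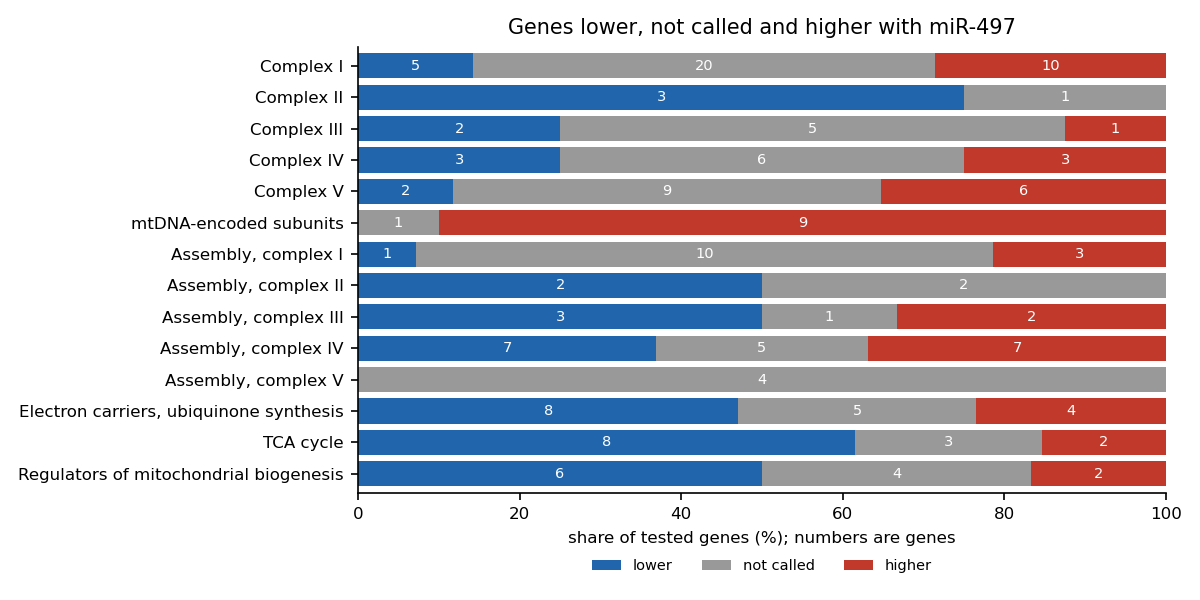
Share of the tested genes of each complex or list that were lower (blue), not called (grey) or higher (red) with miR-497 at an edgeR adjusted p under 0.05 (x axis, percent), with the number of genes in each bar. Complexes II and III, the assembly factors of each, the cycle, the carriers and the regulators have more genes lower than higher. The mitochondrially encoded subunits have 9 higher and 0 lower.

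The seed of miR-497-5p pairs with TGCTGCT, or with GCTGCTA, where the last A faces the first base of the microRNA. Matches were searched in the longest annotated 3′ UTR of each gene. Of 84 tested respiratory chain genes with a 3′ UTR, 4 (4.76%) held a match, against 28.1% of the 12859 tested genes with a 3′ UTR. The 3′ UTRs of these genes are short, with a median of 235 bases against 1187, and per kilobase there were 0.140 matches against 0.254. No tested respiratory chain gene had the 8-base form TGCTGCTA, which 4.61% of all tested genes had.

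The 4 genes are the tested respiratory chain genes with a match of either form in the longest annotated 3′ UTR. They are shown with the match in capitals and 10 bases on each side. The coordinates are GRCm38, all on the minus strand: chr11:96073060-96073086 for the first of 3 matches in Atp5g1, chr7:122086834-122086860 for Ndufab1, chr16:37647236-37647262 for Ndufb4 and chr17:66079359-66079385 for Ndufv2.
Atp5g1: cagccgtcccTGCTGCTttgactccat
Ndufab1: aataagaaaaGCTGCTAttttaagcaa
Ndufb4: gaacgtgagcTGCTGCTgaggcgctag
Ndufv2: gtaacttgcaGCTGCTAaatattatgt

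Of these 4 genes, Atp5g1 and Ndufab1 fell, Ndufb4 rose, and Ndufv2 did not pass the test (log2 fold change -0.15, edgeR adjusted p = 0.11). In Atp5g1 the first match starts 28 bases after the stop codon and lies also in the shortest annotated 3′ UTR of 114 bases, whereas the matches at 1621 and 3266 lie in the long form of 4252 bases. The match of Ndufab1 is in the long form alone, 1497 bases after the stop codon, and that of Ndufb4 is 405 bases after it. The other 14 genes that fell, Cox5a and Ndufa4 among them, had neither form in the 3′ UTR. Ndufa4 and Ndufb11 held the shorter word GCTGCT, which both forms contain. That word was in 4 of 16 genes that fell, 2 of 21 that rose and 5 of 47 that did not pass the test. Over all 84 genes this was 13.1%, against 45.6% of all tested genes.

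A search of the rest of the transcript, the 5′ UTR and coding sequence, was added after the values were seen. It found a match in 5 of 16 genes that fell (Cox5a, Cox8a, Uqcrc2, Sdha and Sdhb), in 1 of 21 that rose (Ndufa6), and in 7 of 47 that did not pass the test. Over all 84 genes this was 15.5%, against 41.1% of all tested genes.

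Nuclear respiratory chain genes are known for promoters with sites for NRF1 and ETS-family factors (GABP), and for YY1. RefSeq promoter windows on GRCm38.p6, from 250 bases before to 50 after the start, were found for 69 of the tested genes. The letters searched on both strands were GCGC and TGCGC with any base between them for NRF1, CCGGAAG for ETS factors and AAGATGGCG for YY1, and none of these words contains another. The NRF1 word was in 19 of 69 genes (27.5%), against 10.7% of tested genes with a window and 4.60% of all windows. The ETS word was in 18 (26.1%, against 19.0% and 8.86%), and the YY1 word in 8 (11.6%, against 3.35% and 1.40%).

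Matches of the NRF1 and ETS words occurred among genes of every outcome, and those of the YY1 word among genes that rose or did not pass the test. The NRF1 word was in 5 of 18 genes that rose, 2 of 12 that fell and 12 of 39 that did not pass the test, the ETS word in 7, 4 and 7, and the YY1 word in 1, 0 and 7. Both the NRF1 and the ETS word were held by Sdhd, which fell, Atp5h and Atp5k, which rose, and Cox6a1, which did not pass the test. For Sdhd and Atp5h the stretch with both words is printed, with the matches in capitals. Whether these words bear on the changes was not tested. The stretches are at chr9:50603879-50603938 and chr11:115419941-115420070, both on the minus strand, and were chosen after the values were seen. In GENCODE M21, 29 of the 60 bases for Sdhd and 22 of the 130 for Atp5h lie in annotated exons. The Sdhd stretch lies outside the annotated Sdhd gene, and the Atp5h stretch reaches into Atp5h.
Sdhd: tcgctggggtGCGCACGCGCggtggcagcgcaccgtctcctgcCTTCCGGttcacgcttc
Atp5h: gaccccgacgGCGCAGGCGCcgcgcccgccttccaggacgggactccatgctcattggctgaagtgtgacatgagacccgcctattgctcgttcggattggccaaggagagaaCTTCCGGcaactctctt

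For the factors themselves, chosen here after their values were seen, Nrf1 fell (log2 fold change -0.55, edgeR adjusted p = 4.8e-06), and Gabpa, a subunit of GABP, did not pass the test (log2 fold change -0.02, SE 0.06, edgeR adjusted p = 0.84). Yy1 is given above.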

How the data were processed

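RNA-seq was analysed in 6 libraries of ADC106 cells, 3 per mimic. Per the file headers and values, the authors deposited a raw count of reads for each gene, without normalization. The submitters' processing notes name GRCm38, STAR 2.5.4b, featureCounts, Subread 1.6.1 and edgeR 3.32.1. The annotation release, the strand setting and the treatment of reads that align to several places were not given in the sources used here. Symbols, coordinates, 3′ UTRs and exon overlaps came from GENCODE M21 by Ensembl identifier (55141 of 55401 matched).

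Genes were filtered with filterByExpr (minimum count 10, minimum total 15), scaled by TMM and tested in edgeR 4.0.16 (R 4.3.3) with a quasi-likelihood F-test, group as the only term, and Benjamini-Hochberg adjustment over all 14661 tested genes (threshold 0.05). Fold changes are miR-497 over NC. CPM uses TMM-scaled library sizes, and TPM the median length of a gene's protein-coding transcripts. Sites and sums were computed with Python 3.11.15 (numpy 2.4.6, pandas 2.3.3), and plots drawn with matplotlib 3.10.9. Simulated data for miR-497 over NC held 14661 genes, with 67 changed 1.2-fold, 67 changed 1.5-fold and 66 changed 2-fold. Of these, 25.4%, 97.0% and 100% were recovered.

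Given with values in each library were, per complex, the 3 genes with the smallest adjusted p among those that passed, the gene with the highest TPM, and the isoform families; other genes are given by call and fold change. Single values of 1 complex I gene and 1 marker gene are not reported here, while the counts, sums and medians include both. Genes outside the set were named where they had the smallest adjusted p of their list in a direction. The genes and lists were chosen with earlier results of these data known. Left out were 13 non-coding genes with matching symbols: 12 pseudogenes with at most 11 counts in all, and Ndufb1-ps, annotated as non-coding. Processed copies under other names were not counted. The alternatives were DESeq2 size factors, upper-quartile scaling, no low-count filter or one at a mean of 50 counts, limma 3.58.1 voom, DESeq2 1.42.0's Wald test, the replicate number as a block, GC and length offsets, each library left out, and, added after seeing the data, leaving out genes with at least 10% overlap with another gene.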

Additional observations from a re-analysis of the deposited data

How the results depend on the processing

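Over the alternatives, 15 to 26 of the respiratory chain genes were called higher and 13 to 20 lower, against 21 and 16. In complex II 3 genes were lower and 0 higher under each of them. Of 374 pairs of a gene described one by one and an alternative, 352 kept their direction and side of the threshold, 3 lost the call, 10 gained one and 9 changed sign. With upper-quartile scaling complex III had 2 higher genes, and Atp5g3 was at 0.0221. With GC and length offsets Uqcr10 was at -0.0281 and Cox6a1 at -0.0762. With the replicate block and offsets together Uqcr10 was at -0.0283, Cox6a1 at -0.0760 and Atp5g3 at 0.0043, and complex V had 1 lower gene. With overlapping genes left out complex III had 1 lower gene. The causes were not tested, other than that this last setting removes Uqcrc2. Leaving out single libraries gave 2 to 7 lower genes in complex I, 1 to 2 higher genes in complex III, 0 to 1 higher Ndufaf gene, and log2 fold changes of -0.123 to 0.0331 for Atp5g3. Leaving out a library also moved the log2 ratio of the summed level between 0.13 and 0.18 for complex I, -0.28 and -0.20 for complex II and 0.57 and 0.79 for the mitochondrially encoded genes. With 8-base matches alone, 0 tested genes had a seed match, and with the shortest 3′ UTR 3 had one. With the replicate block 20 genes were higher, without Cox7b, and 15 lower, without Ndufa12. Same-numbered libraries did not deviate together (correlations -0.12, -0.04 and -0.13). These values cannot show whether such libraries were handled together, which was not given. In simulated data with 14661 genes, 67 were changed 1.2-fold, 67 1.5-fold and 66 2-fold. Of the 1.2-fold changes, 25.4% were recovered. In the data 7307 genes were called, and the adjusted p depends on how many genes change, so this share need not hold here. An absent call does not show that a gene did not change.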

Other observations

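Ndufb1-ps, which the annotation used here calls non-coding and which was therefore left out, had 1272 counts over the 6 libraries. It was at 4.13, 7.45 and 5.33 CPM in NC and 9.63, 7.43 and 7.71 CPM in miR-497 libraries (log2 fold change 0.54, edgeR adjusted p = 0.028). The second annotated copy of Atp5o, whose exons all lie under those of Atp5o and Donson, was at 0.181 to 1.10 CPM and did not pass the test (log2 fold change -0.51, SE 0.56). Besides Cox4i1 and Ndufa13, 5 assembly factor genes were listed at 0 in every library: Ecsit and Foxred1 for complex I, and Cox16, Sco2 and Pet117 for complex IV.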
